A study of Mus musculus with 15 samples.

Results

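Nicotine was compared with water in the prefrontal forebrain cortex of conditional double knockout (DKO) mice, to ask what months of oral nicotine do to gene expression in a cortex that carries the knockout. The comparison rests on 7 of the 15 RNA-seq libraries of the study, 3 from DKO mice on nicotine and 4 from DKO mice on water, and on the 12283 autosomal genes with at least 1 FPKM (fragments scaled by gene model length and library size) in at least 3 libraries, of 21878 rows in the tables. Both DKO groups carried the same double knockout, one of whose targets is Psen2, a catalytic subunit of gamma-secretase. The mice were 8 months old at the start and drank nicotine at 100 µg/ml or plain water for 3 months, and the cortex was taken after behaviour tests. The other 8 libraries came from wild-type (WT) C57BL6/J mice, 4 on the same nicotine and 4 on water. They entered the fit to share its estimate of the spread, and they gave the only group against which the DKO difference could be set. The labels give neither the promoter that drives the conditional deletion, nor the sex of the mice, nor the hour of collection. They number the libraries within each group, and do not say whether different mice gave them. DKO nicotine replicate 2 lacked the Y-linked expression of replicates 1 and 3, so it came from another mouse than they did. Apart from that, the spread between libraries behind each p-value may be technical.

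Nicotine opens nicotinic acetylcholine receptors, cation channels built of alpha and beta subunits, of which those with Chrna4 and Chrnb2 or with Chrna7 are the main forms in cortex. Long exposure is known for raising the amount of receptor protein in the brain. The circadian clock, to which several of the genes described here belong, is a feedback loop in which CLOCK and ARNTL drive genes with E-boxes, PER, CRY, DEC and CIART proteins repress that drive, REV-ERB proteins repress Arntl, and PAR bZIP factors such as DBP act through D-boxes. Transcripts of this loop rise and fall with the time of day in most tissues, cortex included.

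Total reads in genes ranged from 16334904 to 18766081 over the 7 DKO libraries, and at the median gene model length of 3559 bases a value of 1 FPKM stood on 65.2 reads. Psen2 (gene 19165) was at 1.36 to 1.76 FPKM in DKO nicotine and 1.29 to 1.72 in DKO water. These levels lay below all 8 WT libraries, which ran from 5.44 to 7.14, so the genotype labels held for this target. Cortical markers were present, with all 14 excitatory neuron markers measured. DKO nicotine replicate 2 stood apart from the other 6 DKO libraries. Its Y-linked genes Ddx3y and Eif2s3y were at 0.0989 and 0.0938 FPKM, against 10.6 to 13.1 and 7.57 to 16.2 in the others. In WT, all 4 nicotine libraries lacked Y-linked expression and all 4 water libraries had it. Results are therefore given with and without that DKO library, and genes on X and Y were left out of the tests. When they were included, 0 of 427 were called by limma in DKO, and 57 had an unadjusted p under 0.05. The first principal component of the 7 libraries held 24.6% of the variance and placed nicotine replicates 1 and 2 at one end (loadings 0.62 and 0.50), nicotine replicate 3 near 0 (-0.016) and the 4 water libraries at -0.13 to -0.42.

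Few genes passed the test, and the differences were small. Among 12283 genes, 21 were called at a limma adjusted p under 0.05 (0.171%), of which 14 rose with nicotine (0.114%) and 7 fell (0.057%). The rises were in 5 clock genes (Ciart, Dbp, Per3, Bhlhe41 and Nr1d2), in Jsrp1, in the channel genes Kcnk9 and Cacna1e, and in Coq10b, Pxdn, Mdm4, Zfp715, Sec61a2 and Map9. The falls included Gm694, Kcns1, Isyna1, Specc1, Creld1 and Pnkd. The 21 differences ran from 0.19 to 0.76 in size as log2(FPKM + 1), a scale that makes changes of weakly expressed genes look smaller. The 2 tested genes with a difference of at least 1 in size, Ttr and Wdr11, were not called; they were picked out after their values were seen. Ttr, a transport protein made by choroid plexus, was at 2.88, 0.96 and 0.57 FPKM with nicotine and 0.453, 0.447, 10.5 and 24.6 with water, high in 2 water libraries, with a difference of -1.13 (SE 0.74, limma adjusted p = 0.534), and -1.02 without replicate 2. Wdr11 was at 0.0368, 12.6 and 6.095 against 11.8, 6.41, 5.797 and 12.4, near 0 in nicotine replicate 1 alone, with a difference of -1.06 (SE 0.54, limma adjusted p = 0.405), and -1.83 without replicate 2. In each of the 21, the 3 nicotine libraries did not overlap the 4 water libraries. Of all tested genes, 6.9% lay higher and 4.04% lay lower without overlap, and 12.3% and 7.45% did so once replicate 2 was left out. An unadjusted p under 0.05 was reached by 1703 genes (13.9%), 1063 higher (8.65%) and 640 lower (5.21%). The excess of higher genes depended on the scaling. After rescaling by median of ratios 881 were higher (7.17%) and 853 lower (6.94%), and after a correction for gene model length 850 were higher (6.92%) and 923 lower (7.51%).

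Without DKO nicotine replicate 2, 4 genes were called (0.0326%), all higher: Jsrp1, 4833420G17Rik, Dbp and Ciart, of which 4833420G17Rik was not called with that library. The direction and lack of overlap of the 21 genes could not change without it, since their groups were already apart with it. Their differences were then 0.845 to 1.1 times those with it. Unadjusted limma p-values were at most 0.000654 and limma adjusted p-values up to 0.143. Other libraries moved the count as much. There were 6 calls without nicotine replicate 1 and 55 without nicotine replicate 3, and 1, 9, 1 and 20 without water replicates 1, 2, 3 and 4. Without WT nicotine replicate 1 or 3, or WT water replicate 1 or 4, which bear only on the shared spread, there were 13, 9, 9 and 8. A fit on the 7 DKO libraries alone called 0 genes by limma (smallest adjusted p = 0.0594), with 1298 genes at an unadjusted p under 0.05 and all 21 at 0.00113 or less. Jsrp1 was called in all 15 fits that left out 1 library.

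**Figure D1:**
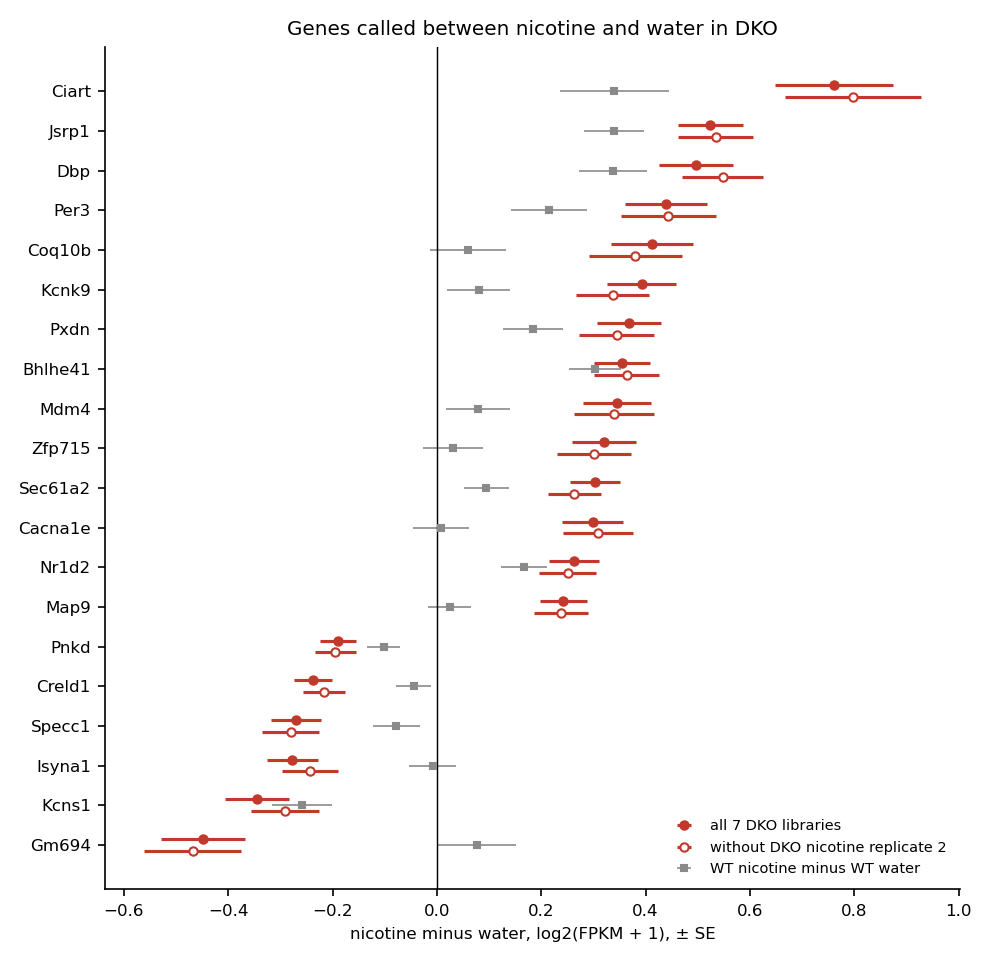
Difference between nicotine and water for 20 of the 21 called genes, on the scale of log2(FPKM + 1), with standard errors. Filled red points use all 7 DKO libraries, open red points leave out DKO nicotine replicate 2 and grey squares give the WT difference. Each open point lies on the same side of 0 as its filled point, which the lack of overlap between the groups fixes.

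Clock genes made up 5 of the 14 rises. Of 29 listed clock genes, 26 passed the filter on low values, and 5 rose, 0 fell and 21 were not called. The remaining 3 stayed under 1 FPKM in all DKO libraries. Unadjusted limma p-values under 0.05 were found for 12 higher and 3 lower clock genes, beside 8.65% and 5.21% of all tested genes. Without nicotine replicate 2 there were 8 and 4, beside 7.91% and 4.19%. With all libraries the median difference was 0.059, beside 0.0071 over all tested genes. Without nicotine replicate 2, 2 rose (Dbp and Ciart) and the median was 0.079. The count of called clock genes was 0 without water replicate 1, without water replicate 3 or in the fit on DKO alone. It was 2 without nicotine replicate 1, and 3 without water replicate 4 or without WT nicotine replicate 3, WT water replicate 1 or WT water replicate 4.

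Among the 21, the largest difference was that of Ciart, whose protein represses CLOCK and ARNTL (gene 229599, chr3:95878500-95882257, GRCm38.p6). It was at 9.46, 6.85 and 5.87 FPKM in the nicotine libraries and at 3.63, 3.84, 4.12 and 3.92 in the water libraries. All 3 nicotine libraries lay above all 4 water libraries, and nicotine replicate 1 lay highest. The means were 7.39 ± 1.86 (SD, n = 3) against 3.88 ± 0.203 (SD, n = 4) FPKM, a difference of 0.76 (SE 0.11, limma adjusted p = 0.0143), and 0.80 (limma adjusted p = 0.0498) without replicate 2. Levels in WT were 8.11 to 10.2 on water and 10.3 to 13.2 on nicotine, so nicotine replicate 1 lay within the range of WT water and the other 6 DKO libraries lay below it.

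Dbp, a PAR bZIP transcription factor that binds D-boxes (gene 13170, chr7:45705100-45710203), was at 49.9, 40.8 and 41.5 FPKM with nicotine and 31.6, 33.7, 28.3 and 29.8 with water. Again no library of either group reached the other, and nicotine replicate 1 was the highest. The difference was 0.50 (SE 0.071, limma adjusted p = 0.0143) and was 0.55 (limma adjusted p = 0.0134) without replicate 2. Its model overlaps that of Sphk2 on the genome, as Ciart's overlaps C920021L13Rik and Per3's overlaps Uts2, and the strand setting of the counting was not given in the sources used here.

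Per3, a PERIOD protein gene (gene 18628, chr4:150997018-151044707), was at 7.29, 6.404 and 5.72 FPKM with nicotine and 4.34, 5.01, 4.35 and 4.29 with water. The water libraries were close together except for replicate 2, which was still below the lowest nicotine library. The difference was 0.44 (SE 0.078, limma adjusted p = 0.0336), and 0.44 (limma adjusted p = 0.102) without replicate 2. Its paralogs Per1 and Per2 were higher in the mean but were not called. Per1 was at 15.6, 14.9 and 12.3 against 9.56, 10.5, 9.32 and 10.7 FPKM without overlap, a difference of 0.47 (SE 0.12, limma adjusted p = 0.111). Per2 was at 7.92, 8.24 and 4.71 against 4.18, 3.38, 4.46 and 4.92, where nicotine replicate 3 fell inside the water range, and differed by 0.58 (SE 0.14, limma adjusted p = 0.112). Without replicate 2, Per1 and Per2 differed by 0.44 and 0.46.

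Bhlhe41, which encodes the repressor DEC2 (gene 79362, chr6:145858243-145865420), was at 11.2, 11.01 and 11.2 FPKM with nicotine and 8.13, 8.67, 8.23 and 8.98 with water, and the 3 nicotine libraries were nearly level. The difference was 0.36 (SE 0.053, limma adjusted p = 0.0143), and 0.36 (limma adjusted p = 0.066) without replicate 2. Its paralog Bhlhe40 was at 40.2, 45.6 and 36.1 against 35.1, 33.1, 34.2 and 36.95, overlapping, with a difference of 0.21 (SE 0.071, limma adjusted p = 0.217). Nr1d2, the gene of REV-ERB beta (gene 353187, chr14:18204056-18239106), was at 34.5, 33.4 and 30.7 against 25.9, 28.6, 28.4 and 26.2, without overlap. It rose by 0.26 (SE 0.047, limma adjusted p = 0.0347), and differed by 0.25 (limma adjusted p = 0.115) without replicate 2. Nr1d1, the gene of REV-ERB alpha, was at 63.4, 60.4 and 63.03 against 57.5, 54.2, 53.2 and 57.03, also without overlap but not called, with a difference of 0.16 (SE 0.046, limma adjusted p = 0.147). Without replicate 2, Bhlhe40 and Nr1d1 differed by 0.13 and 0.19.

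Genes on the activating side and Nfil3 differed in direction, and none of them was called. Arntl, the partner of CLOCK, was at 5.097, 5.13 and 5.59 FPKM with nicotine and 6.96, 5.64, 6.03 and 6.57 with water, lower without overlap, with a difference of -0.22 (SE 0.071, limma adjusted p = 0.206). Npas2, which can take the place of CLOCK, was at 9.49, 9.705 and 9.57 against 10.7, 11.01, 10.6 and 11.1, lower without overlap, with a difference of -0.16 (SE 0.043, limma adjusted p = 0.123). Nfil3, a repressor at D-boxes, was at 1.46, 1.45 and 1.62 against 2.12, 1.97, 2.17 and 1.87, lower without overlap, with a difference of -0.27 (SE 0.087, limma adjusted p = 0.192). None of these 3 was called, and without replicate 2 they differed by -0.20, -0.17 and -0.26. Arntl2, a paralog of Arntl, was at 2.39, 2.57 and 2.17 against 2.09, 1.78, 1.602 and 2.09, higher without overlap but not called, with a difference of 0.23 (SE 0.084, limma adjusted p = 0.247) and 0.19 (limma adjusted p = 0.45) without replicate 2. Clock itself overlapped fully (9.52 to 10.7 against 9.22 to 10.6). In all, 9 of the 26 tested clock genes lay higher and 3 lower without overlap, beside 6.9% and 4.04% of all tested genes. The other 14 overlapped, among them Cry1, Cry2, Rora, Tef, Hlf and the kinase genes Csnk1d and Csnk1e.

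**Figure D2:**
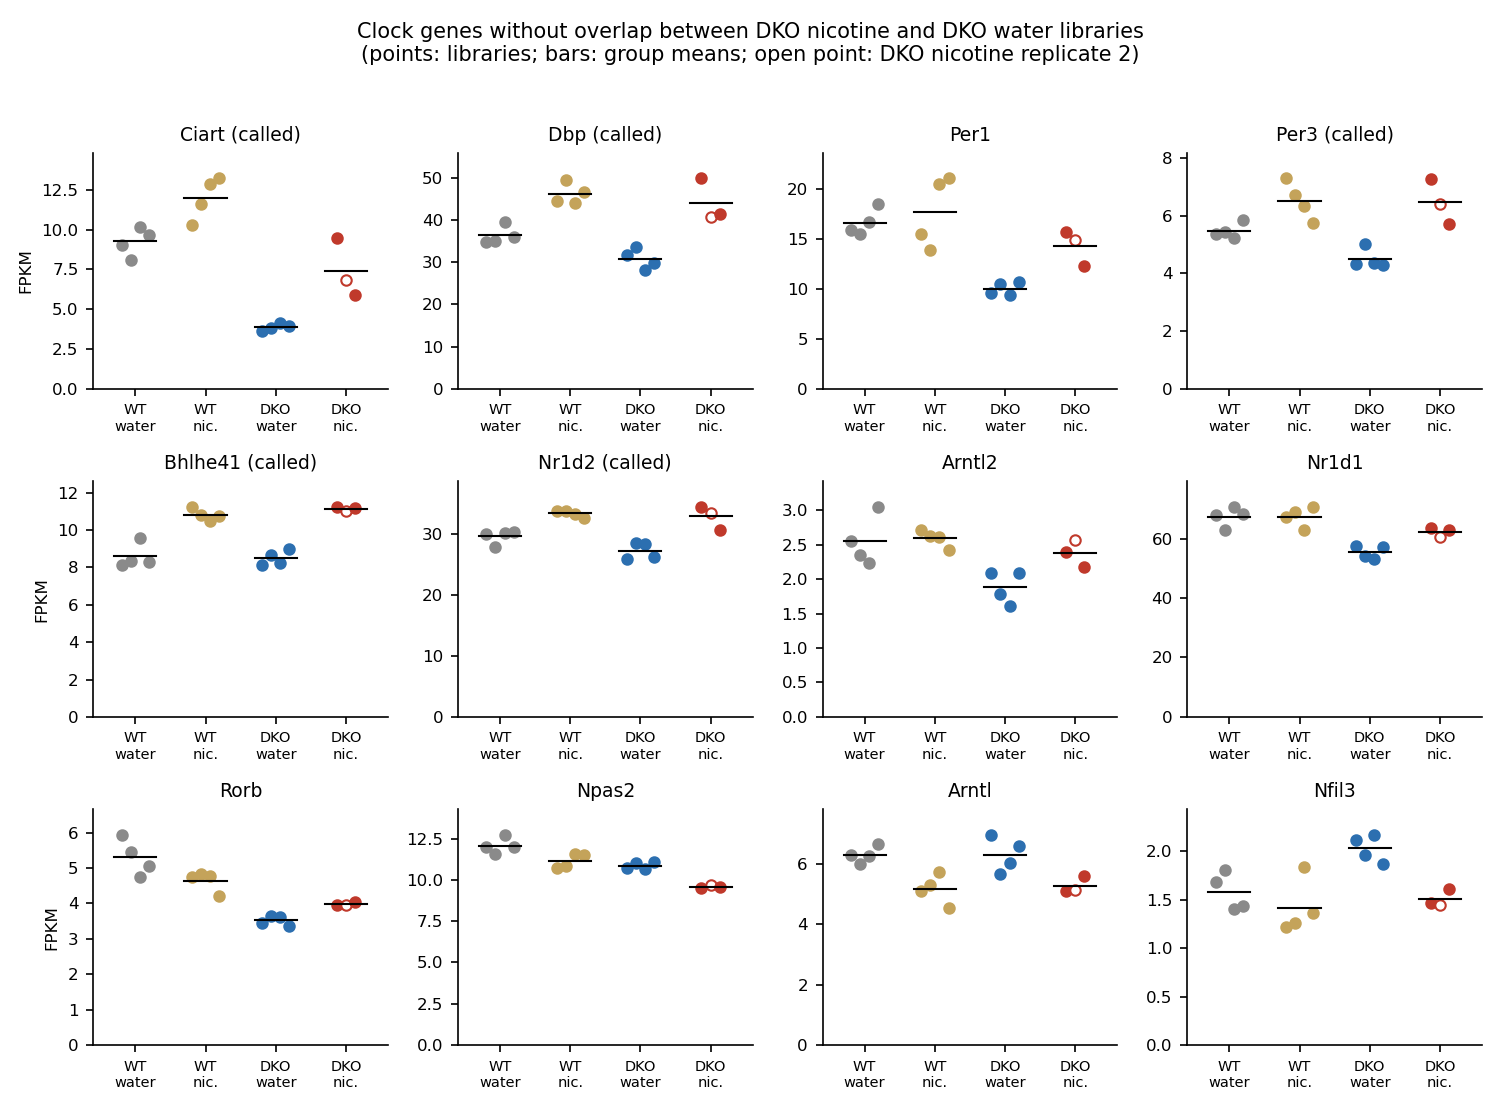
FPKM of the 12 clock genes whose DKO nicotine and DKO water libraries do not overlap, in each of the 15 libraries by group; bars are group means, and the open point is DKO nicotine replicate 2. Of these, 9 lie higher and 3 (Npas2, Arntl and Nfil3) lower with nicotine; each axis starts at 0 and has its own scale.

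Because the 5 called clock genes moved together, their promoters were read from RefSeq (GRCm38.p6) and searched on both strands for 4 motifs, the E-box CACGTG, the D-box TTATGTAA or TTATGCAA, the cAMP response element TGACGTCA and AGGTCA, the core of the sites of REV-ERB and ROR proteins. The window was the 250 bases before the start, and the bases before the outermost annotated start are printed here, 5′ to 3′ on the gene's strand, with motifs in capitals. The 4 called clock genes with a match are shown, all on the minus strand.
Per3, chr4:151044708-151044915: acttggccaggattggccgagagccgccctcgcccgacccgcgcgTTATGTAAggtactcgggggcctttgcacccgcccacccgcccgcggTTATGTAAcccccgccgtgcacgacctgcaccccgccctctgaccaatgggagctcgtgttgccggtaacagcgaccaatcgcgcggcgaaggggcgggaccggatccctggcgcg
Ciart, chr3:95882258-95882478: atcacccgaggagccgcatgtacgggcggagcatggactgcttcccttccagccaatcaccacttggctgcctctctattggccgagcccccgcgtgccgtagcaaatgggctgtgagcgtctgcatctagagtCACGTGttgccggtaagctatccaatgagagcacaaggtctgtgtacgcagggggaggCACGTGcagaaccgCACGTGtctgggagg
Bhlhe41, chr6:145865421-145865670: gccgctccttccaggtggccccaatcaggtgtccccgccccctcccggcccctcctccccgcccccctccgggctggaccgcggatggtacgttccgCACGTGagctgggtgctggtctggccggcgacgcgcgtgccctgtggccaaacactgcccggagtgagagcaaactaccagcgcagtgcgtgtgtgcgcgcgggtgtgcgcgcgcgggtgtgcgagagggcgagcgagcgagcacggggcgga
Nr1d2, chr14:18239107-18239356: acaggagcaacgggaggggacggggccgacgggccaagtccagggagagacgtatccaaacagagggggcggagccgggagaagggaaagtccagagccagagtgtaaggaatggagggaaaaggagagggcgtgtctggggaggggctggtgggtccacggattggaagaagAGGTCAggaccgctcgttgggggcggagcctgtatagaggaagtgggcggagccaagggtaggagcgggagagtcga

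Per3 held 2 D-boxes, starting 205 and 158 bases before the start, and Ciart held 3 E-boxes, at 116, 58 and 44 bases. Bhlhe41 held 1 E-box at 153 bases and Nr1d2 held 1 AGGTCA at 77 bases. No match overlapped another in these 4, and the window of Dbp held none of the 4 motifs. An E-box was thus found in 2 of the 5 called clock genes and in 3 of the 16 other tested clock genes with an entry (Per1, Cry1 and Tef), beside 6.02% of 32851 promoters of the same length. A D-box was found in 1 of 5 and in 1 of 16 (Per1), beside 1.5%. A cAMP response element was found in 0 of 5 and 1 of 16, beside 1.55%, and AGGTCA in 1 of 5 and 3 of 16, beside 14%. The counts are of genes, and some of the 16 had up to 4 windows, any of which could hold a match. The percentages are of single promoters. These matches describe the letters in the window and not binding.

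Genes that set membrane potential and excitability are described next. Kcnk9, which encodes the two-pore leak potassium channel TASK-3 (gene 223604, chr15:72501873-72548614), was at 11.9, 12.9 and 10.9 FPKM with nicotine and 8.52, 8.71, 8.73 and 9.25 with water. The groups did not overlap, and nicotine replicate 2 was the highest library. Kcnk9 rose by 0.39 (SE 0.065, limma adjusted p = 0.0288), and differed by 0.34 (limma adjusted p = 0.104) without replicate 2. Kcns1, a silent voltage-gated subunit that modifies other potassium channels (gene 16538, chr2:164163619-164171113), was at 4.66, 4.17 and 4.896 against 6.27, 5.497, 6.38 and 6.16, all nicotine libraries below all water libraries. Its difference was -0.34 (SE 0.062, limma adjusted p = 0.0336), and -0.29 (limma adjusted p = 0.134) without replicate 2. Of 38 listed potassium channel genes, 37 were measured, and 1 rose and 1 fell, with a median difference of 0.021. At an unadjusted p under 0.05, 4 were higher and 3 lower, beside 8.65% and 5.21% of all tested genes. Without replicate 2 there were 1 and 3, beside 7.91% and 4.19%. Without it neither Kcnk9 nor Kcns1 was called, and the median was 0.0033. It was -0.013 after a correction for gene model length.

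Cacna1e, the pore subunit of R-type calcium channels (gene 12290, chr1:154390806-154884785), was at 10.997, 10.6 and 10.8 against 8.099, 8.13, 8.67 and 9.57, where water replicate 4 came closest to the nicotine group. Its difference was 0.30 (SE 0.058, limma adjusted p = 0.0498), the closest to the threshold of the 21, and 0.31 (limma adjusted p = 0.115) without replicate 2. After a correction for gene model length it was 0.19 (limma adjusted p = 0.114).

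Jsrp1, which encodes a protein of the junctional sarcoplasmic reticulum (gene 71912, chr10:80808494-80813741), had the smallest p of all genes. It was at 5.19, 5.22 and 5.51 FPKM with nicotine and 3.53, 3.38, 3.19 and 3.44 with water, 2 narrow groups well apart. The difference was 0.52 (SE 0.062, limma adjusted p = 0.00258), and 0.53 (limma adjusted p = 0.0132) without replicate 2. Levels in WT were 2.73 to 3.28 on water and 3.78 to 4.41 on nicotine.

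The other rises were in genes of varied function. Pxdn, a peroxidase that cross-links collagen IV (chr12:29936642-30017658), was at 15.5, 16.1 and 15.1 FPKM against 11.5, 12.04, 11.5 and 12.4, a difference of 0.37 (SE 0.062, limma adjusted p = 0.0288). Sec61a2, an alpha subunit of the channel that passes new proteins into the endoplasmic reticulum (chr2:5870977-5895432), was at 12.6, 13.01 and 11.3 against 9.79, 9.81, 9.47 and 9.96, a difference of 0.30 (SE 0.047, limma adjusted p = 0.0148). Coq10b, a coenzyme Q binding protein of mitochondria (chr1:55052770-55072702), was at 18.8, 17.7 and 14.5 against 11.8, 12.1, 13.1 and 13, with nicotine replicate 3 nearest to water, and differed by 0.41 (SE 0.078, limma adjusted p = 0.0461). The groups were apart in each of these 3 genes, and without replicate 2 they differed by 0.34, 0.26 and 0.38. Mdm4, an inhibitor of p53 (chr1:132986105-133030587), was at 15.6, 14.9 and 13.8 against 11.1, 12.2, 11.02 and 11.3, and Map9, a microtubule-associated protein (chr3:82358072-82395268), at 23.8, 22.4 and 20.5 against 18.1, 18.6, 18.7 and 19.1. Zfp715, a zinc finger protein gene (chr7:43296522-43313300), was at 7.98, 7.94 and 7.24 against 5.94, 6.44, 5.98 and 5.58. These 3 rose by 0.35, 0.24 and 0.32 (limma adjusted p = 0.0461, 0.0383 and 0.0461), and differed by 0.34, 0.24 and 0.30 without replicate 2.

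Among the falls, Creld1, which encodes a membrane protein with EGF-like domains (chr6:113483356-113493343), had the smallest p. It was at 29.3, 27.2 and 27.7 FPKM with nicotine and 33.8, 33.2, 33.1 and 32.9 with water, a difference of -0.24 (SE 0.036, limma adjusted p = 0.0147), and -0.22 (limma adjusted p = 0.0988) without replicate 2. The 4 water libraries of Creld1 lay within 1 FPKM of each other, all above the nicotine libraries. Isyna1, the enzyme that makes inositol phosphate from glucose phosphate (chr8:70594481-70597290), was at 17.1, 15.8 and 16.95 against 21.3, 19.9, 20.2 and 20.1, a difference of -0.28 (SE 0.049, limma adjusted p = 0.0336), and -0.24 without replicate 2. Specc1 (chr11:61956763-62223013) was at 7.79, 8.09 and 7.99 against 9.57, 10.02, 10.4 and 9.28, and Pnkd, the gene of a paroxysmal movement disorder (chr1:74284599-74353692), at 49.1, 48.5 and 47.1 against 56.6, 56.01, 54.5 and 53.6. Gm694, a model without a gene name (chr4:141432672-141436105), was at 1.98, 2.06 and 1.89 against 2.81, 3.44, 2.97 and 3.04. The last 3 changed by -0.27, -0.19 and -0.45 (limma adjusted p = 0.0336, 0.0375 and 0.0336), and without replicate 2 differed by -0.28, -0.19 and -0.47. Pnkd overlaps the models of Aamp and Tmbim1. Of the other called genes, Pxdn, Specc1, Kcns1, Coq10b, Mdm4 and Cacna1e overlap predicted models without a gene name.

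The transcript 4833420G17Rik, which has no gene name, depended on replicate 2 in the other direction. It was at 4.398, 1.67 and 4.01 FPKM with nicotine and 1.77, 1.69, 1.45 and 1.49 with water. Nicotine replicate 2 lay within the water range while replicates 1 and 3 lay above it. The difference was 0.68 (SE 0.19, limma adjusted p = 0.141) with all libraries and 1.00 (limma adjusted p = 0.0132) without replicate 2. In WT it was at 2.97 to 5.35 on water and 4.89 to 5.29 on nicotine.

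No gene of the nicotinic receptor list was called. Of its 24 genes, 11 passed the filter, 12 stayed below it in the tables and 1 had no row under its symbol. An unadjusted p under 0.05 was reached by 0 higher and 2 lower genes, beside 8.65% and 5.21% of all tested genes. Without replicate 2 there were 0 and 3, beside 7.91% and 4.19%. The median difference was -0.075, and -0.076 without replicate 2. Chrnb2, the main beta subunit of cortex, was at 11.5, 12.01 and 12.1 FPKM with nicotine and 13.3, 12.1, 13.3 and 13.4 with water, which overlap at water replicate 2, with a difference of -0.12 (SE 0.053, limma adjusted p = 0.31). Chrna4, its usual alpha partner, was at 9.12, 8.76 and 8.89 against 9.74, 9.103, 10.5 and 8.94, a difference of -0.088 (SE 0.074, limma adjusted p = 0.646). Chrna7, the subunit of receptors made of alpha subunits alone, was at 4.89, 5.25 and 5.25 against 5.06, 6.61, 5.81 and 6.12, a difference of -0.17 (SE 0.086, limma adjusted p = 0.409). All 3 overlapped between groups, and without replicate 2 they differed by -0.13, -0.076 and -0.18. Chrna5, an accessory subunit, was at 0.832 to 1.08 against 0.606 to 0.998.

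Among the proteins that act on these receptors, Lynx1, a membrane-anchored brake on them, was at 96.03, 96.5 and 85.6 FPKM against 108, 103, 114 and 94.8, overlapping at water replicate 4. It differed by -0.17 (SE 0.061, limma adjusted p = 0.232), and by -0.20 (limma adjusted p = 0.267) without replicate 2. The receptor chaperone Ric3 was at 14.9 to 15.4 against 14.8 to 15.5, a difference of 0.0033 (SE 0.04). Ly6e, Ly6h, Lypd1, Lypd6 and Lypd6b, of the same family as Lynx1, differed by -0.075, 0.024, 0.014, 0.028 and -0.14, all with overlap. Without replicate 2 they differed by -0.14, 0.12, 0.077, 0.047 and -0.12, and Ly6e then lay lower without overlap (limma adjusted p = 0.323). No member of the list of acetylcholine handling genes (7 of 10 measured) had an unadjusted p under 0.05, and its median difference was 0.022. Without replicate 2 none had such a p either, and the median was -0.022. A p that misses the threshold does not show that the levels were equal.

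Beyond the called genes, several lists held more members with an unadjusted p under 0.05 on one side than the 8.65% higher and 5.21% lower found over all genes (6.92% and 7.51% after the correction for gene model length), with Coq10b the one called gene among them. Of 22 measured cholesterol synthesis genes (23 listed), 10 were higher and 0 lower at that p, and the median difference was 0.14, or 0.21 without replicate 2, where 13 were higher (7.91% of all genes were). Hmgcs1, the HMG-CoA synthase of the pathway, was at 111, 97.3 and 104 FPKM against 95.01, 90.1, 84.9 and 93.9, without overlap, with a difference of 0.19 (SE 0.048, limma adjusted p = 0.112). Sqle, squalene epoxidase, was at 30.4, 26.1 and 28.7 against 25.6, 24.6, 23.9 and 27.2, overlapping at nicotine replicate 2, with a difference of 0.16 (SE 0.051, limma adjusted p = 0.203). Without replicate 2, Hmgcs1 and Sqle differed by 0.24 and 0.22, neither of them called. Over the list, nicotine replicate 2 had the lowest mean level of the 3 nicotine libraries (4.07, beside 4.31 and 4.21, and 3.95 to 4.14 with water).

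Of 18 measured glucocorticoid-responsive genes (20 listed), 6 were higher and 0 lower at an unadjusted p under 0.05, with a median difference of 0.15 with and without replicate 2. Without it 6 were higher too, with Mt1 in place of Sgk1. The list includes Per1. Its mean levels were 3.751, 3.644 and 3.504 with nicotine and 3.403, 3.378, 3.502 and 3.503 with water, so nicotine replicate 3 was nearly level with water replicates 3 and 4. Mt2, a metallothionein, was at 134, 123 and 159 FPKM against 116, 103, 111 and 121, without overlap, with a difference of 0.29 (SE 0.088, limma adjusted p = 0.181). Arrdc2 was at 7.02, 6.39 and 6.05 against 5.18, 5.71, 5.35 and 4.28, without overlap, with a difference of 0.29 (SE 0.10, limma adjusted p = 0.237). Their groups stood apart, and the nicotine values without replicate 2 gave 0.37 and 0.30.

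The list of unfolded protein response genes and chaperones holds chaperones of the endoplasmic reticulum and heat shock genes of the cytosol. All 25 were measured, 0 were higher and 10 lower at an unadjusted p under 0.05, and the median difference was -0.092, or -0.061 without replicate 2, where 7 were lower (4.19% of all genes were). The 10 include Hspa1a and Dnajb1, heat shock genes of the cytosol, which were not among the 7. Over the list, mean levels were 5.026, 5.028 and 5.031 with nicotine and 5.139, 5.083, 5.219 and 5.018 with water. Water replicate 4 thus lay below all 3 nicotine libraries. Manf, a secreted stress protein, was at 15.2, 16.3 and 15.99 FPKM against 20.1, 17.9, 19.8 and 16.6, without overlap, with a difference of -0.21 (SE 0.076, limma adjusted p = 0.237). Hyou1, a chaperone of the endoplasmic reticulum, was at 21.1, 23.9 and 22.7 against 25.1, 24.2, 27.1 and 24.7, without overlap, with a difference of -0.16 (SE 0.056, limma adjusted p = 0.235). Calr, which encodes calreticulin, was at 164 to 169 against 164 to 212, overlapping at water replicate 4. Without replicate 2, Manf, Hyou1 and Calr differed by -0.23, -0.20 and -0.17. Of 46 measured oxidative phosphorylation genes, 9 were lower and 1 higher, the called Coq10b, with a median of -0.072. Without replicate 2, 6 were lower and the median was -0.035, and 14 were lower after rescaling by median of ratios or after the correction for length.

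Synaptic vesicle genes (20 of 22 measured) had 0 higher and 6 lower at that p, with a median of -0.015, and -0.051 with 4 lower without replicate 2. There were 8 lower after the correction for length. Cplx1, which encodes complexin, a regulator of vesicle fusion, was at 324, 318 and 316 FPKM against 384, 394, 370.4 and 343, without overlap, with a difference of -0.22 (SE 0.046, limma adjusted p = 0.0638) and -0.22 (limma adjusted p = 0.154) without replicate 2. Slc32a1, the transporter that fills vesicles with GABA, was at 40.5, 36.4 and 45.1 against 48.7, 49.6, 42.5 and 50.8, overlapping at nicotine replicate 3, with a difference of -0.23 (SE 0.078, limma adjusted p = 0.215) and -0.16 (limma adjusted p = 0.448) without replicate 2. Glutamate receptor genes (21 measured of 22) had 2 higher and 0 lower, Gria2 and Gria4, subunits of AMPA receptors, with differences of 0.15 and 0.13, and of 0.14 and 0.13 without replicate 2. Leaving out replicate 2 gave 2 higher and 1 lower, Grin1, a subunit of NMDA receptors, which differed by -0.075 with all libraries and -0.11 without it, and took the median from 0.0404 to -0.0059. GABA-A receptor genes (11 of 12) had none on either side, and a median of 0.017, which was 0.0055 without replicate 2 and -0.0096 after the correction for length. Neuropeptides (13 of 14) had 1 lower, the striatal peptide gene Penk, and a median of -0.021. Without replicate 2 they had none on either side and a median of 0.08. Receptors for dopamine and other monoamines (13 of 18) had 0 higher and 3 lower, Adra1b, Adra1d and Drd2, with a median of -0.073. Without replicate 2, 2 were lower, Adra1b and Adra1d, and the median was -0.016.

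Immediate early genes went both ways, 3 higher and 2 lower of 40 measured of 41, with a median of 0.027, and of 0.084 without replicate 2, where 4 were higher and 3 lower. Ier5 was at 41.3, 39.1 and 34.7 FPKM against 29.9, 29.98, 31.9 and 33.4, without overlap, with a difference of 0.28 (SE 0.066, limma adjusted p = 0.0905), and Klf10 at 11.1, 10.2 and 9.07 against 6.14, 6.46, 7.52 and 8.27, without overlap, with a difference of 0.46 (SE 0.15, limma adjusted p = 0.202). Vgf, which encodes a secreted neuropeptide precursor, was at 65.6 to 71.4 against 67.4 to 86.02, overlapping, with a difference of -0.22 (SE 0.076, limma adjusted p = 0.235). Without replicate 2, Ier5, Klf10 and Vgf differed by 0.27, 0.46 and -0.19. Growth factor signalling genes (15 of 18) had 4 higher and 0 lower, among them Nrg3, at 7.73 to 8.096 against 6.47 to 7.28 without overlap, and a median of 0.061. Without replicate 2, 3 were higher and the median was 0.075, and 2 were higher after the correction for length. Oxidative stress genes (19 of 19) had 0 higher and 1 lower, Keap1, with a difference of -0.084, and -0.059 without replicate 2. That library left out, 1 was higher, Cat, and 1 lower, Slc7a11, a cystine transporter, which differed by -0.25 with all libraries and -0.40 (limma adjusted p = 0.257) without it, and the median went from -0.015 to 0.024.

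Genes of glial and immune activation showed no called member. None of the 29 genes of disease-associated microglia, all measured, had an unadjusted p under 0.05, and their median was -0.047, or -0.067 without replicate 2, where 1, Itgax, was lower. Apoe, a lipid carrier, was at 2192, 2034 and 2186 FPKM against 2477, 2363, 2398 and 2028, overlapping, with a difference of -0.11 (SE 0.062, limma adjusted p = 0.44) and -0.078 without replicate 2. Complement genes (13 of 16) had 0 higher and 1 lower, with a median of -0.097 and of -0.16 without replicate 2, where 4 were lower. Reactive astrocyte genes (16 of 22) had 2 higher (Aspg and Ggta1) and 1 lower (Serpina3n). Without replicate 2, Serpina3n had an unadjusted p of 0.151 and the 1 lower gene was Psmb8. Lysosomal genes (27 of 28) had 1 higher and 2 lower, of which Glb1 had an unadjusted p of 0.051 without replicate 2, and 4 were lower after the correction for length. Interferon response genes (23 of 26) had 2 higher and a median of 0.091, which became 0 higher and -0.0087 without replicate 2. Gbp3, an interferon-induced GTPase, was at 2.32, 4.43 and 2.78 against 1.95, 2.85, 2.299 and 2.05, with nicotine replicate 2 the one library above the water range, and differed by 0.32, or 0.12 without replicate 2. Myelin genes (17 of 18) had 0 higher and 3 lower, with a median of -0.11, which became 0 lower and -0.0046 without replicate 2. Fa2h, an enzyme of myelin lipid synthesis, was at 13.6, 11.5 and 15.4 against 15.3, 18.2, 15.7 and 14.8, lowest in nicotine replicate 2, with a difference of -0.23, or -0.13 without it.

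**Figure D3:**
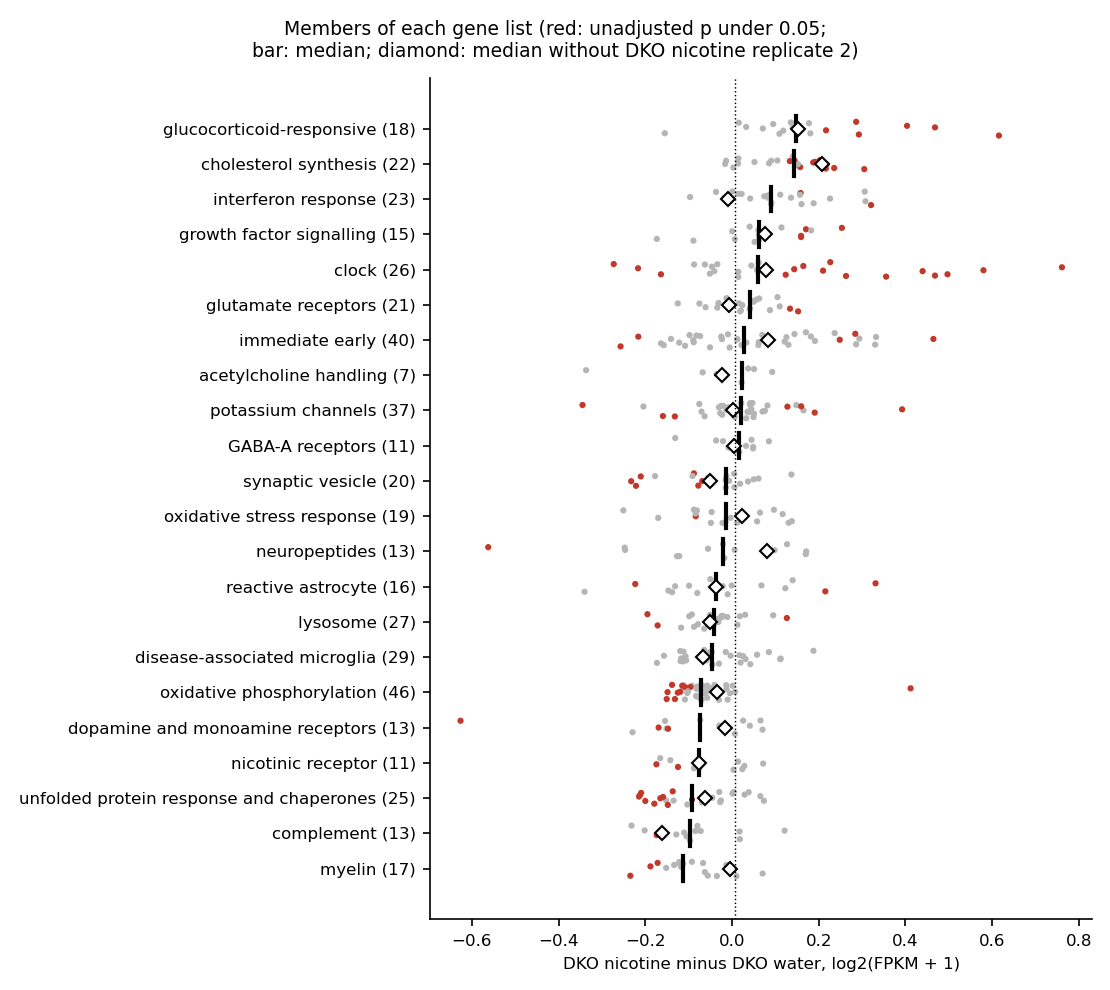
Difference between DKO nicotine and DKO water for each measured member of 22 gene lists, on the scale of log2(FPKM + 1); red points have an unadjusted limma p under 0.05, bars are medians, diamonds are medians without DKO nicotine replicate 2, and the dotted line is the median of all tested genes. The medians of cholesterol synthesis and glucocorticoid-responsive genes lie furthest to the right with and without that library. Complement, nicotinic receptor genes and the list of unfolded protein response genes and chaperones are among those to the left both ways. The interferon and myelin medians move to near 0 without that library.

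The 10 uncalled genes with the largest differences, 5 in each direction among those with an unadjusted p under 0.01 and no overlap, included Per1. H2-Q6, a class I histocompatibility gene with close paralogs among which reads may be split, was at 3.82, 5.92 and 3.93 FPKM against 2.54, 2.78, 1.64 and 2.81, with a difference of 0.68 (SE 0.14, limma adjusted p = 0.0551), and nicotine replicate 2 was the highest. Gpr3, a receptor that raises cAMP without a ligand, was at 4.04, 3.48 and 2.85 against 2.61, 1.61, 2.23 and 2.31, with a difference of 0.48 (SE 0.13, limma adjusted p = 0.132). Tnfrsf8 and Adam33 were higher by 0.49 and 0.48. On the lower side, Col1a1, a collagen of fibroblasts, was at 2.205, 3.22 and 2.93 against 4.098, 4.25, 4.38 and 4.77, with a difference of -0.51 (SE 0.11, limma adjusted p = 0.0893). Olig2, a transcription factor of the oligodendrocyte lineage, was at 8.09, 9.51 and 11.1 against 11.4, 13.7, 13.2 and 12.5, with a difference of -0.38 (SE 0.092, limma adjusted p = 0.104). Galnt9, Fam131c and Sftpc differed by -0.40, -0.37 and -0.55. Without replicate 2, H2-Q6, Gpr3, Col1a1 and Olig2 differed by 0.52, 0.48, -0.60 and -0.38. Tnfrsf8, Adam33, Galnt9, Fam131c and Sftpc then differed by 0.38, 0.46, -0.44, -0.48 and -0.57.

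Marker levels of neighbouring tissue and of other cell types differed between libraries. In bulk tissue, fewer cells of a type and less RNA per cell cannot be told apart. Striatal markers, which mark tissue below the cortex, had mean levels on the scale of log2(FPKM + 1) of 3.74, 3.25 and 3.74 in nicotine libraries 1 to 3 and 3.92, 4.33, 3.51 and 4.25 in water libraries 1 to 4. All 12 were measured, and 6 were lower and 0 higher at an unadjusted p under 0.05, beside 5.21% and 8.65% of all tested genes. The median difference of the striatal markers was -0.47, or -0.27 without replicate 2, where 0 were lower at that p. Adora2a, a receptor of striatal neurons, was at 7.48, 4.41 and 8.41 FPKM against 11.5, 16.5, 6.48 and 14.3, with a difference of -0.73 (SE 0.30, limma adjusted p = 0.281). Drd2, a dopamine receptor of striatal neurons, was at 7.49, 4.27 and 8.23 against 9.64, 14.1, 6.73 and 13.04, and Penk at 56.6, 32.6 and 67.2 against 75.1, 90.1, 49.5 and 90.4. Nicotine replicate 2 was the lowest library and water replicate 2 among the highest in each of these 3 genes. Without nicotine replicate 2 they differed by -0.49, -0.38 and -0.26. Their part in the other differences was not tested.

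Markers of choroid plexus and ependyma (6 of 12 measured) had a median of -0.25, and of -0.088 without replicate 2. The 10 meningeal and fibroblast markers had a median of -0.22, with mean levels of 2.02, 2.52 and 2.64 in nicotine libraries against 2.43 to 2.73, and -0.30 without replicate 2. Beside 8.65% and 5.21% of all tested genes, microglial markers (11 of 12) had 0 higher and 4 lower at an unadjusted p under 0.05. Their mean levels were 4.21, 4.55 and 4.36 against 4.41 to 4.51, and Tmem119 was at 10.8, 11.6 and 10.3 against 13.3, 13.7, 12.4 and 13.3 without overlap, with a difference of -0.25 (SE 0.083, limma adjusted p = 0.206) and -0.29 without replicate 2. The median over the microglial markers was -0.084, and -0.16 without replicate 2, where 4 were lower, with Csf1r in place of P2ry12. Oligodendrocyte markers (9 of 10) had mean levels of 5.62, 5.36 and 5.64 against 5.52 to 5.85, lowest in nicotine replicate 2, with a median difference of -0.11, or -0.0046 without that library. The 8 precursor markers had mean levels of 3.29, 3.43 and 3.39 against 3.47 to 3.54. At an unadjusted limma p under 0.05, 0 of them were higher and 2 lower (0 and 1 without replicate 2). Olig2, Olig1, C1ql1, Sox10, Cacng4, Cspg4 and Gpr17 differed by -0.38, -0.22, -0.21, -0.14, -0.057, -0.043 and -0.017, and Pdgfra by 0.068. Without replicate 2 these genes, in the same order, differed by -0.38, -0.14, -0.26, 0.0006, -0.12, -0.0825 and -0.26, and Pdgfra by 0.027. Excitatory neuron (14), inhibitory neuron (11), astrocyte (12), endothelial (13), hippocampal and thalamic (9) and blood (6) markers had overlapping mean levels between the groups. The part of these levels in the called genes was not tested.

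**Figure D4:**
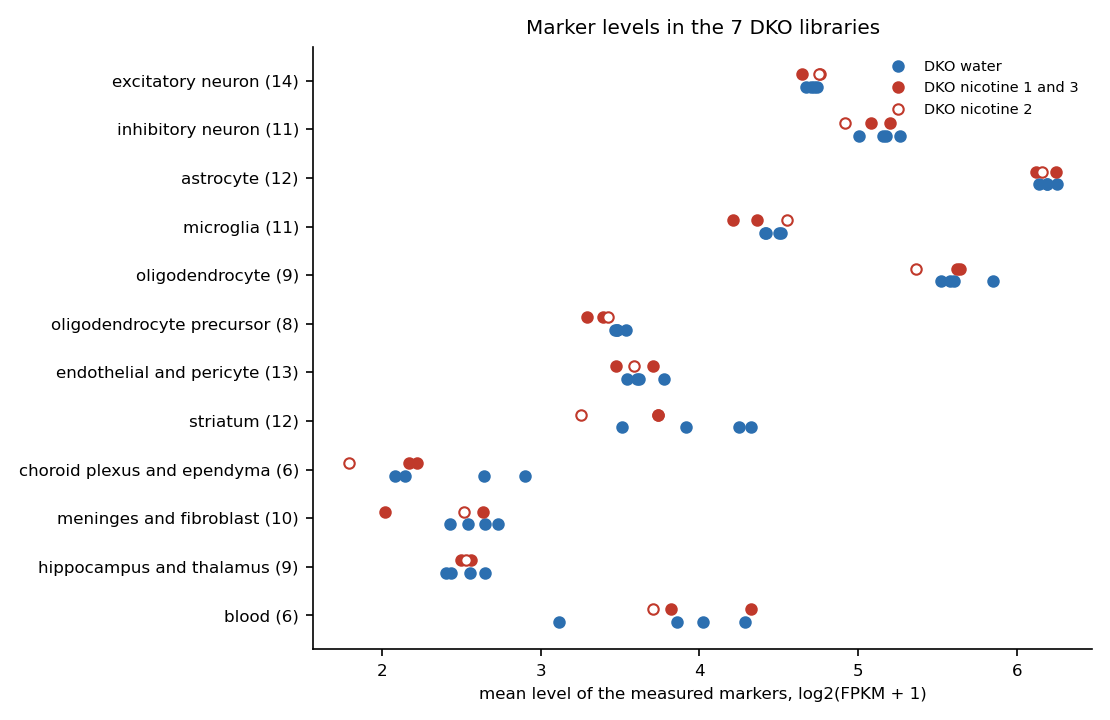
Mean level of the measured markers of each cell type or neighbouring region in the 7 DKO libraries, on the scale of log2(FPKM + 1), with the number measured in brackets; blue points are water libraries, red points nicotine libraries and the open point nicotine replicate 2. The striatal level of nicotine replicate 2 (3.25) is the lowest of the 7, and the mean precursor levels of all 3 nicotine libraries lie below those of the 4 water libraries. The precursor markers differ among themselves, from -0.38 for Olig2 to 0.068 for Pdgfra, and from -0.38 to 0.027 without nicotine replicate 2.

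Differences also moved with gene model length. Across genes, as a description with genes that share libraries, the deviation of nicotine replicate 2 from the water mean had a Spearman correlation of 0.389 with length over 12283 genes, and that of water replicate 1 from the other water libraries had -0.401. The other 5 DKO libraries lay between -0.019 and 0.255. The nicotine difference itself had a correlation of 0.226 with length, 0.064 without nicotine replicate 2 and 0.111 without water replicate 1. The median model length was 6221 bases among the 14 genes that rose, 2712 among the 7 that fell and 3559 among all tested. With each library's trend on length subtracted, 26 genes were called, 12 higher and 14 lower, of which 16 were among the 21. Of the 5 clock genes, Dbp, Ciart, Bhlhe41 and Nr1d2 kept their call, and Per3 had a limma adjusted p of 0.051.

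**Figure D5:**
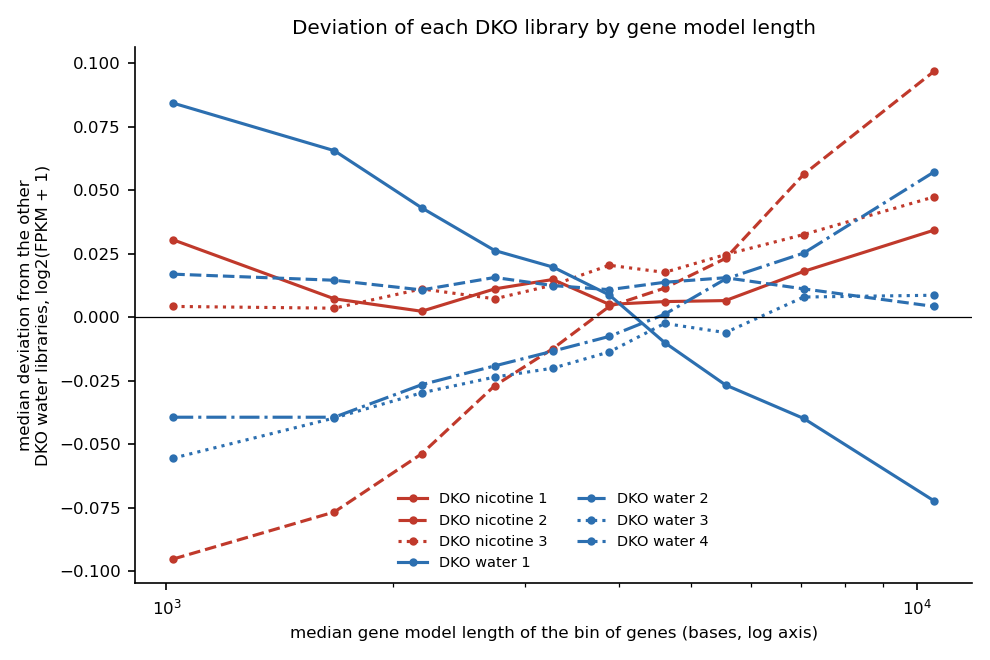
Median deviation of each DKO library from the DKO water libraries other than itself, on the scale of log2(FPKM + 1), over 10 bins of the tested genes ordered by gene model length (log axis). Nicotine replicate 2 goes from -0.095 in the bin of shortest genes to 0.097 in that of the longest, and water replicate 1 from 0.084 to -0.072.

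Whether the nicotine difference in DKO differed from that in WT was tested as an interaction. Of the 21 genes, 0 had a limma adjusted p under 0.05 for the interaction and 15 had an unadjusted p under 0.05, as did 848 of 12283 tested genes. The 21 were chosen on the DKO side of that contrast, so their share is a description. Over all genes 2 were called (0.0163%), and in both the DKO groups overlapped. In the WT comparison 15 genes were called (0.122%), and 2 of them, Jsrp1 and Bhlhe41, were among the 21. Jsrp1 differed by 0.34 in WT (SE 0.057, limma adjusted p = 0.0175), at 3.78 to 4.41 FPKM on nicotine against 2.73 to 3.28 on water. Bhlhe41 differed by 0.30 (SE 0.049, limma adjusted p = 0.0141), at 10.5 to 11.3 against 8.13 to 9.603.

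For the other called clock genes the WT differences were 0.34 for Ciart, 0.34 for Dbp, 0.21 for Per3 and 0.17 for Nr1d2, none of them called (limma adjusted p = 0.349, 0.0631, 0.414 and 0.241). The interaction for Ciart was 0.42 (SE 0.15, limma adjusted p = 0.664) and that for Dbp 0.16 (SE 0.097, limma adjusted p = 0.782). In WT, nicotine and the absence of Y-linked expression fell in the same 4 libraries and cannot be told apart. In DKO, 2 of the 3 nicotine libraries carried Y-linked expression, as all 4 water libraries did, and those 2 alone gave the values listed as without replicate 2.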

How the data were processed

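RNA-seq of prefrontal forebrain cortex gave 15 libraries, made from total RNA with a TruSeq stranded mRNA kit, per the labels' protocols. Per the submitters' processing notes, the build was GRCm38.p6. Which aligner and counter were used, and whether by strand, was not given in the sources used here. The authors deposited 1 table of FPKM values per library, a unit taken from the values themselves: those of all tested genes were whole multiples of 1 read (100% within 0.02 reads), from which reads and gene model lengths were recovered. Gene numbers restored 27 names that had become dates, and 21727 rows matched RefSeq. Mitochondrially encoded genes were not analysed here.

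Values were tested as log2(FPKM + 1) with limma 3.58.1 (R 4.3.3) and an intensity trend, fitting the 4 groups of all 15 libraries together without a block, with Benjamini-Hochberg adjustment over 12283 autosomal genes. Named genes were all called genes, all measured clock and nicotinic receptor genes, genes called only without DKO nicotine replicate 2, the 5 largest uncalled rises and falls with p under 0.01 and no overlap, up to 4 called or else 3 members by p of the other lists, the genes of the interaction, and the targeted gene. Not every gene under that rule is reported here. The members and the 35 lists were chosen with earlier results of these data known. On simulated data, 200 of 12283 genes were changed. The test of nicotine against water in DKO found 46% of the genes changed 1.25-fold and 88% at 1.5-fold. Without replicate 2 it found 40% and 80%. Of the 12083 genes left unchanged there, it called 0.108%, and 0.0662% without replicate 2. Same-group libraries differed by a chi-square of 3.21 to 7.52 per gene, so none was taken as a duplicate. Alternatives were rescaling, filters of none and 5 FPKM, no trend, a pseudocount of 0.1, DKO libraries alone, a replicate block, library weights, all chromosomes, voom on recovered reads and leaving out each library. The length adjustment (lowess, span 0.3), DKO alone and voom without replicate 2, and leaving out WT libraries were added after seeing the data. Plots used Python 3.11.15 and matplotlib 3.10.9.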

Additional observations from a re-analysis of the deposited data

Results flagged for a closer look

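In 6 of 155 named genes, 1 of the 4 DKO water libraries lay far from the other 3, by Dixon's test at 95%, which chance alone gives for about 1 group in 20. Among them, Per3 was at 5.01 FPKM in water replicate 2 and at 4.29 to 4.35 in the others, and Chrnb2 at 12.1 in replicate 2 against 13.3 to 13.4. Lypd6 was at 8.21 in replicate 3 against 9.39 to 9.51, Tac2 at 10.1 in replicate 3 against 13.6 to 14.3, and Slc1a2 at 255 in replicate 1 against 279 to 282.

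The nicotine difference differed between DKO and WT by the interaction test in Serpinb6a, by 2.03 on the log2(FPKM + 1) scale (limma adjusted p = 0.000169), and in Gabra2, a GABA-A receptor subunit gene, by 0.95 (limma adjusted p = 0.0387). In DKO both overlapped between nicotine and water, with differences of -0.035 and -0.0081. In WT the differences were -2.07 and -0.96. Serpinb6a was there at 2.08 to 2.71 FPKM on nicotine against 8.55 to 15.7 on water, and Gabra2 at 9.32 to 9.78 against 17.6 to 26.8. Both calls thus rested on the WT groups, where nicotine and the absence of Y-linked expression cannot be told apart.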

How the results depend on the processing

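None of the 21 called genes reversed under any of the 28 alternatives. Except for rescaling, the replicate block, the length adjustment and voom with or without replicate 2, their lack of overlap fixed this in advance. The filter at 5 FPKM left out Gm694. The 21 calls became 13 without the intensity trend, 6 with library weights and 0 in the fit on DKO libraries alone, and 88 by voom on recovered reads, of which 20 were among the 21 (23 by voom without DKO nicotine replicate 2, and 1 in DKO alone without it, 4833420G17Rik). Leaving out 1 library gave 1 to 55 calls. Leaving out a WT library, which bears only on the spread, gave 8 to 21. Rescaling by median of ratios moved the median of all genes from 0.0071 to -0.0039 and gave 14 calls, 8 higher and 6 lower. The other alternatives gave 15 to 26. The interaction's 2 calls became 1 without a filter, 1 without the trend, 1 with library weights and 1 to 3 when a library was left out. The replicate numbers showed no sign of pairing the libraries, though so few libraries cannot exclude it. Same-numbered DKO libraries had correlations of deviations of 0.063, -0.16 and -0.212, and 1 of 3 nicotine libraries correlated best with its own number. With the replicate block, 15 genes were called in DKO (7 higher and 8 lower, 10 of them among the 21) and 1 for the interaction. The causes of these shifts, among them the fewer libraries in the fit on DKO alone, were not tested. Depth limits low genes: 1 FPKM at median length is 65.2 reads.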
